A study of Mus musculus with 12 samples.

Results

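Chromatin captured with probes against Mirlet7d in MLE-12 cells gave 4286 peaks, and 759 of them lay between genes, close to a gene start and on no annotated repeat. These 759 regions were taken as the peaks whose deposited class is intergenic, whose detailed annotation names no repeat, and that lie, measured to the closest transcription start site (TSS), at most 50000 bases away in either direction. Their nearest genes numbered 665, of 3192 genes nearest to any peak. Of the 1716 intergenic peaks, 1155 were within this distance, and 396 of those were set aside because they carried a repeat name. A further 349 intergenic peaks without a repeat lay farther away. The choice used class, repeat and distance, so none of these properties is a finding about the regions, while score, width, side, chromosome, neighbouring RNAs and nearest genes were not used. Leaving out promoters, introns and exons can still shift the side and the closeness to RNAs.

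The series holds 12 libraries from MLE-12, a mouse line derived from lung epithelium, each the only library of its group. For ChIRP-seq, which fishes out an RNA with biotinylated probes and sequences the DNA that comes with it, chromatin was incubated with 150 pmol of tiling probes for mature Mirlet7d. For the RNA pull-down, cells were transfected with biotinylated Mirlet7d at 25 nM for 48 h, and RNA held by streptavidin beads was sequenced beside an input. The ChIRP-seq library also carries a label of Mirlet7d gain of function, and the labels do not say which arm of the microRNA was used. Both assays have an input library, and no capture with unrelated probes or beads alone was used here, so binding to Mirlet7d and capture without it cannot be told apart. ChIRP-seq reads DNA and the pull-down lists were selected on their fold, so the line's lung identity was not checked against markers. The libraries of nuclear RNA, small RNA and nascent transcription were not used here.

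Let-7d belongs to the let-7 family, microRNAs that in the cytoplasm guide Argonaute to messenger RNAs through bases 2 to 8, the seed, and that hold back growth and developmental genes. Some microRNAs are also found in the nucleus, where they can meet RNAs still attached to chromatin. Regions between genes and near a TSS are where enhancers, upstream promoters and divergent noncoding transcripts are usually found. A ChIRP-seq peak there marks DNA recovered with the probes, not a base-paired site.

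The mature arms of let-7d are shown because they are the bait, followed by those of the 3 microRNA genes that stand out among the nearest genes described further on. Capitals mark the seed, and sequences are from RefSeq (GRCm38.p6), written 5′ to 3′.
mmu-let-7d-5p: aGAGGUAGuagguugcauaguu
mmu-let-7d-3p: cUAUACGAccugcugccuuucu
mmu-miR-29b-3p: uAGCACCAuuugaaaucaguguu
mmu-miR-29b-1-5p: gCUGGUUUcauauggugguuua
mmu-miR-365-3p: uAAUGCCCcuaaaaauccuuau
mmu-miR-365-2-5p: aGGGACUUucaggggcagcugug
mmu-miR-181c-5p: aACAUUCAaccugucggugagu
mmu-miR-181c-3p: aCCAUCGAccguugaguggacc
No seed among these 8 sequences was shared, so miR-29b, miR-365 and miR-181c are not let-7 relatives by seed.

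Gene starts near captured regions are shown for 3 genes, as the bases just before the TSS. The data bear on Socs3 and Junb, while Krt18 is shown only for its letters. At Socs3, an inhibitor of cytokine signalling, a captured region about 1 kb upstream overlapped a promoter-associated noncoding RNA of the pull-down. At Junb, a subunit of the transcription factor AP-1, the region about 1 kb upstream lay 2878 bases from such an RNA. That RNA was overlapped by the other Junb region, 3279 bases downstream of the start. At Krt18, a keratin of simple epithelia, the promoter holds the complement of the let-7d-5p seed, CTACCTC, in capitals. The Krt18 region lay 4276 bases upstream, scored 33.14, and its nearest noncoding candidate was 50163 bases away. Whether these letters have a part in the capture was not tested. Each stretch covers the 250 bases upstream of a RefSeq start on GRCm38.p6, on the gene's strand. The peaks themselves have mm9 coordinates and their sequence is not shown.
Socs3: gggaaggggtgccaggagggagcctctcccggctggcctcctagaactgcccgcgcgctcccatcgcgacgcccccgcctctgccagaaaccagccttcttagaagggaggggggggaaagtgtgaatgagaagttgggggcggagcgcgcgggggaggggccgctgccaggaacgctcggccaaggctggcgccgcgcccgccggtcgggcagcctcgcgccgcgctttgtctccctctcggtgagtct
Junb: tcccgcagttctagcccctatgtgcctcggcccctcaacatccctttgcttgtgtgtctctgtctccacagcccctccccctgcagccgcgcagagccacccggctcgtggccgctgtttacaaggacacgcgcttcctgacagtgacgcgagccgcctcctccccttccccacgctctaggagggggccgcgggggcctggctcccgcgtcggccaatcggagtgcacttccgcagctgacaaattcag
Krt18: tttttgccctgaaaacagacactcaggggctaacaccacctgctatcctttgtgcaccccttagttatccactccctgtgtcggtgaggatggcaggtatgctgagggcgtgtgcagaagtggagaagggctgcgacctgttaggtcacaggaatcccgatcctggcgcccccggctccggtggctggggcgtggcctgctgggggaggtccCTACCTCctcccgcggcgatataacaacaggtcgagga

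The let-7d-5p seed was searched as GAGGTAG and its complement CTACCTC, that is on both strands, in RefSeq windows from 250 bases before to 50 after each start. Of 556 promoters that matched 448 of the nearest genes by symbol, 12 held it, which is 2.16% (exact Clopper-Pearson 95% interval 1.12 to 3.74%). Among all 32851 promoters the share was 3.85%, above this interval. Among 2302 promoters of genes nearest to other peaks it was 3.74%, at the upper end of that interval. The interval of this last share, 3 to 4.59%, overlapped that of the promoters next to these regions. Several promoters can belong to the same gene, so they are not independent. Besides Krt18, the 12 promoters included those of Lif, a cytokine of the interleukin 6 family, and Sema4a, a semaphorin. In the Socs3 window G and C made up 73.3% of the bases with 31 CpG dinucleotides, and in the Junb window 65.3% with 21. Neither window held the seed letters, which says only that this string is missing there.

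The score that MACS, the peak caller, gave each region ran from 30.02 to 3100 with a median of 34.18, and quartiles of 31.52 and 40.125. All scores here are the authors' deposited values. A score of at least 40 was reached by 192 regions, 25.3% (22.24 to 28.55%), beside 24.8 percent of all peaks. This share was therefore close to the background of the whole list. By score, 232 regions lay from 30 to 32, 200 from 32 to 35, 135 from 35 to 40, 121 from 40 to 50, 62 from 50 to 100, and 9 at 100 or more. Median width was 648 bases (382 to 9855), beside 646 over all peaks. Wide regions had high scores: those scoring 50 to 100 had a median width of 1063 bases and those scoring 30 to 32 had 591.5. Both measures come from the same read pile-up. Peaks at promoters had a higher median score, 36.09, and 37.28% of them reached 40 (32.56 to 42.2%), an interval that lies above that of the intergenic regions.

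The 9 regions at or above 100 were led by a peak of 5130 bases nearest to Col19a1, a collagen gene, with the score of 3100, a maximum that 2 peaks of the whole list share. It sits 26524 bases upstream of that gene at chr1:24618236-24623365. Whether its reads belong to this place alone was not tested, so the score is not tied to that gene. Rn4.5s, the gene of a small rodent 4.5S RNA that occurs in tandem copies, was nearest to 3 of the 9, with scores of 329.66, 317.92 and 142.37. In a tandem array the distance depends on which copy the annotation chose, and reads of near-identical copies cannot be assigned with certainty. Igf2bp3, which encodes an RNA-binding protein of the IGF2BP family and is a textbook let-7 target, followed with 122.46 at chr6:49186236-49187047, 21688 bases upstream of its start. Fcrl5, an Fc receptor-like gene of B cells, had 108.12, and Mir181c had 107.21 at chr8:86710058-86711687, 8012 bases upstream. The unnamed transcript 4930529K09Rik had 102.98 and Osbpl1a, an oxysterol-binding protein gene, 101.36.

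From 99.3 down to 71.08 the next regions lay near genes of varied function. Dhrs3, which reduces retinal, had a region of 99.3 lying 36376 bases downstream of its start. Rhou, a small GTPase gene, had 96.87, the ATP synthase subunit gene Atp5h 93.07, and Paip2b, a regulator of poly(A)-binding protein, 92.56. Piezo1, the mechanosensitive cation channel, had 92.34 and Rpp21, a subunit of RNase P, 92.01. The actin-oxidising enzyme gene Mical1 had 91.87 at 1586 bases upstream. Etv5, a transcription factor of alveolar type II cells, had 89.37 at 1414 bases upstream (chr16:22440457-22441658). Gas8, of the ciliary dynein regulatory complex, had 88.08, and Gm11437 had 87.25. Rara, the retinoic acid receptor alpha, had 85.03 at 1046 bases upstream, with Gm7102 at 80.68, the taurine transporter gene Slc6a6 at 78.93 and Slx4, a scaffold of DNA repair nucleases, at 77.75. The 25 highest closed with 2310007B03Rik at 71.49 and the fatty acid receptor gene Ffar4 at 71.08. Of these 25 regions, 19 were upstream of their gene and their median width was 1329 bases. Within 10 kb of a pulled-down noncoding RNA lay 1 of the 25.

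**Figure D1:**
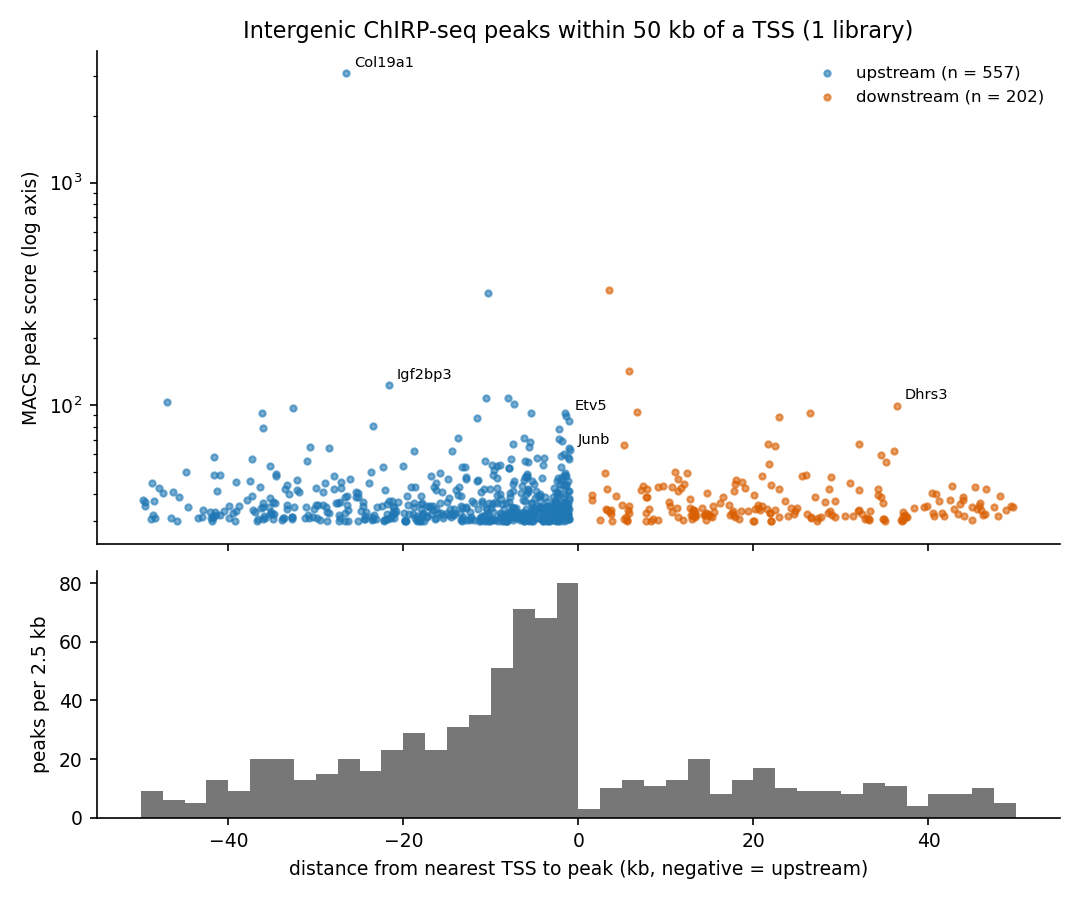
Score of each of the 759 regions (log axis) against its distance from the nearest TSS in kb, with the number of regions per 2.5 kb below. Blue points are the 557 upstream regions and orange points the 202 downstream regions; the region nearest to Col19a1 stands alone at 3100, and regions crowd just upstream of the start.

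Regions upstream of their gene numbered 557, or 73.39% (70.09 to 76.5%), and the share over all peaks was 43.9 percent. The side is partly set by the class, since downstream of a start a peak usually falls in an intron or exon and is then not intergenic. Intergenic peaks on a repeat at the same distances were upstream in 78.28% (73.89 to 82.25%), and those beyond 50 kb in 49.0%. The median distance was 13438 bases, with 10519 upstream and 21745 downstream. Upstream, 59 regions lay within 2 kb, 89 from 2 to 5 kb, 122 from 5 to 10 kb and 118 from 10 to 20 kb. In the further steps of 10 kb there were 74, 62 and 33. Downstream, 2 regions lay within 2 kb, then 11, 24, 54, 45, 35 and 31 in the same steps. Regions became sparser away from the start on the upstream side, while downstream they peaked between 10 and 20 kb.

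Scores showed no steady course with distance. In the upstream 2 kb 35.59% of the 59 regions reached 40, against 16.85% from 2 to 5 kb, 28.69% from 5 to 10 kb and between 22.88 and 30.3% beyond. Downstream, 0 of 2 regions within 2 kb reached 40, then 27.27%, 33.33% of 24 from 5 to 10 kb, and 12.9 to 26.67% beyond. The deposited promoter class reached 990 bases from the start, so the closest regions lie just outside it. The 12 closest were all upstream, had scores from 30.76 to 85.03, and 7 of them reached 40. They lay near Junb (62.69, 1013 bases), Urb1, a ribosome biogenesis gene (37.61, 1021 bases), Rara, and Kpnb1, the import receptor importin beta (57.35, 1061 bases). Next came Nrde2 (38.34), the zinc finger factor gene Klf16 (30.76), the chemokine gene Cxcl12 (40.9) and 1110001J03Rik (30.79). Mgea5, the enzyme that removes O-GlcNAc, had 63.87, the kinase gene Nuak1 34.26, the epithelial sodium channel subunit gene Scnn1a 58.4, and Socs3 41.11 at 1142 bases. Distance here runs to the middle of the peak, so the edge of the Rara region came within 274 bases of the start.

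At the far limit the 5 regions just inside lay near Tob1, an antiproliferative gene (49797 bases), Tmem174 (49686), the haematopoietic factor gene Runx1 (49498), Zfp938 (49498) and Olig1 (49468), with scores of 34.89 to 37.49. Intergenic peaks just outside lay near Scaf11 (50184 bases), Arl4c (50494), Foxi3 (50663) and Fam86 (50722), with scores of 33.08 to 50.01. The scores on both sides of the limit overlapped.

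The regions were concentrated on the same chromosomes as the rest of the peaks. Chromosome 11 held 126, chromosome 8 held 118, chromosome 6 held 108, chromosome 16 held 62 and chromosome 19 held 57, together 62.06% (58.5 to 65.52%) beside 62.2% of all peaks. Every other chromosome held 6 to 32, and Y held 0 of its 1 peak. On chromosome 11, 118 of 126 regions started beyond 70 Mb, whereas on chromosome 16 only 14 of 62 did. Median scores on the 5 rich chromosomes ran from 34 to 36.19. Without these chromosomes, 18.4% of the remaining 288 regions reached a score of 40. The same share among all peaks was not computed, so this drop is not particular to the regions. Why they are rich was not tested.

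**Figure D2:**
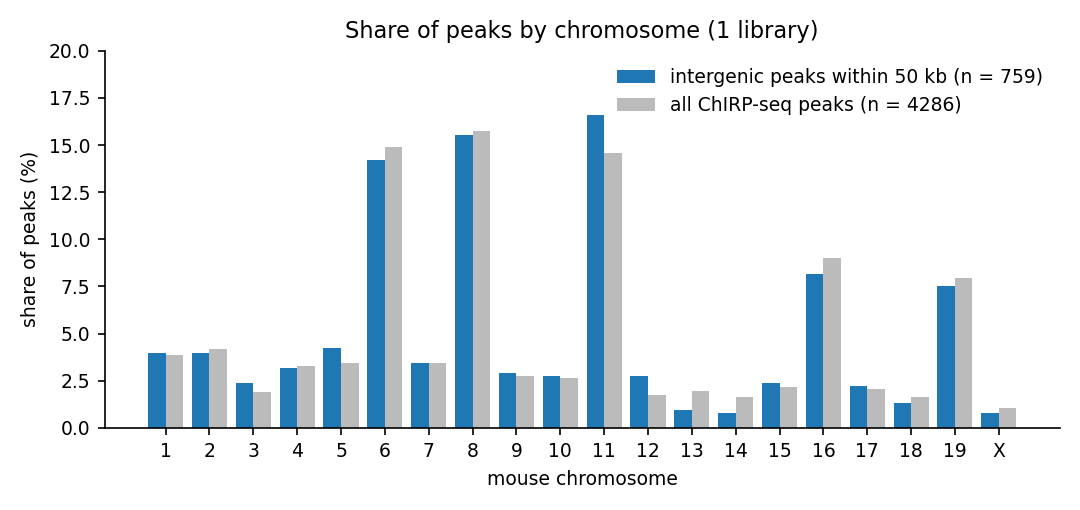
Share of peaks in percent on each mouse chromosome, for the 759 intergenic regions (blue) and all 4286 peaks (grey), 1 library. Both sets of bars are tall on chromosomes 6, 8, 11, 16 and 19 and follow each other closely.

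Most nearest genes, 592 of 665, had 1 region, 59 had 2 and 14 had 3 or more. Mir29b-1, which encodes miR-29b, a microRNA known for repressing collagens and other matrix genes, had the most, 7 of its 8 peaks. All 7 lay upstream, 7782 to 41680 bases from the start of the gene. From near to far they scored 40.23, 62.17, 32.05, 31.28, 30.76, 45.76 and 58.31, so the series was high at both ends and low in its middle. RefSeq describes a microRNA gene by its hairpin, so this start is not the start of the primary transcript. Within 10 kb of 6 of the 7 regions the pull-down listed a noncoding RNA, 3 different ones. The region at 31.28 overlapped NONMMUT056155, which went from 0.886 RPKM in the input to 10.961 in the pull-down, a deposited fold of 12.37 (95% counting interval 4.064 to 62.28). The region at 58.31 lay 610 bases from NONMMUT056157, whose fold of 9.04 rests on 2 input reads, counted as 1 pair (1.375 to 382.2). RPKM is reads per kilobase of span, scaled to the depth of the library.

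Mir365-2, a microRNA gene with 3 regions, had all of them downstream at 19898, 36075 and 37347 bases, with scores of 30.22, 62.03 and 32.05. Rn4.5s had 5 of its 15 peaks among the regions, the other 2 scoring 53.46 and 38.54. Its remaining 10 peaks were promoter or TTS class or carried a repeat name. Irf2bp2, a transcriptional corepressor gene, had 4 regions of 30.15 to 37.12 on both sides, and 4 more intergenic peaks beyond 50 kb that scored up to 71.13. Rhou had 3 regions of its 10 peaks, and the other 7, all intergenic, lay upstream from 30793 to 64626 bases. Its region of 96.87 was flanked by peaks of 55.72 and 53.62 that carry a repeat name.

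Socs3 had 3 regions and no other peak. They scored 48.07 and 41.11 upstream, at 5823 and 1142 bases, and 50.18 downstream at 10989 bases (chr11:117819285-117820098). Snai1, the repressor of E-cadherin in epithelial to mesenchymal transition, also had 3 and no other, at 40.09, 33.94 and 40.3, all downstream between 14699 and 40456 bases. Itga3, the integrin subunit that pairs with beta 1 on lung epithelium, had 58.07, 37.23 and 30.36 within 5878 bases upstream, beside an intronic peak of 37.55. Lsm4, of the spliceosomal and decay Lsm ring, had 7 peaks from 5999 bases upstream to 9049 downstream, of which 3 were intergenic regions (39.98, 41.59 and 42.92) and its promoter peak was the highest at 58.28. Med13, a Mediator kinase module subunit, had 48.98, 32.97 and 33.14, and the membrane protein gene Emp2 had 31.04, 33.57 and 32.27, all upstream. The bHLH factor gene Atoh8 had 40.86, 30.45 and 36.29. Gm4262 had 31.91, 48.04 and 36.67, and Wsb1, a SOCS-box protein gene, 30.14, 30.64 and 32.89. Of the 49 regions at these 14 genes, 46 lay on the 5 peak-rich chromosomes.

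**Figure D3:**
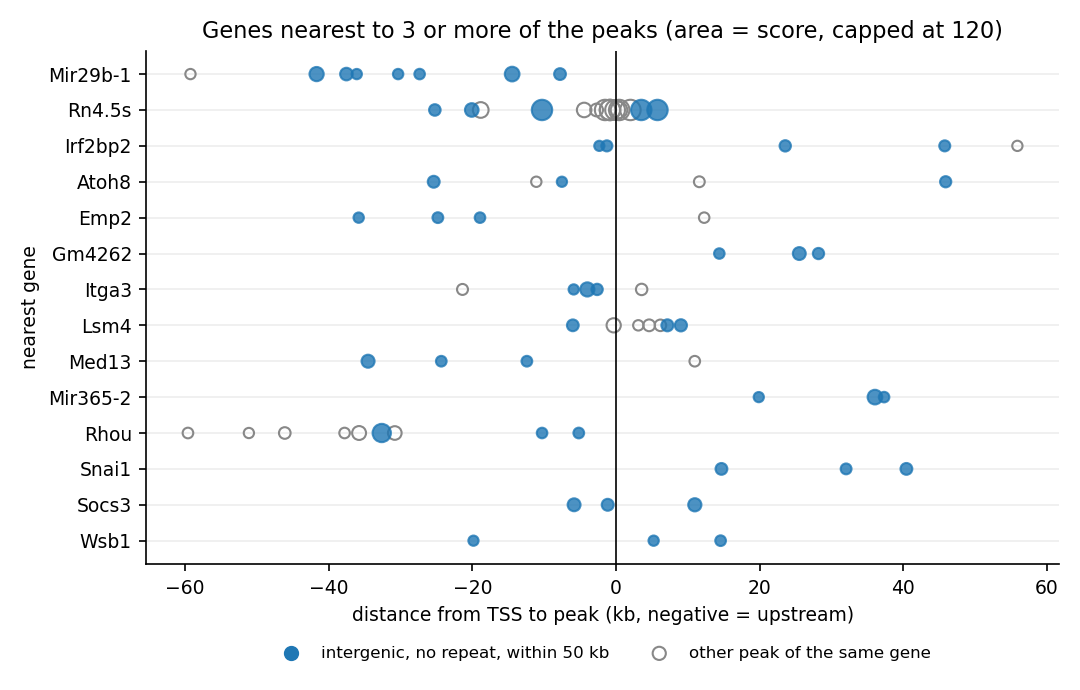
Position of every peak within 60 kb of the 14 genes nearest to 3 or more regions, as distance from the TSS in kb; filled points are the intergenic regions, open circles other peaks of the same gene, and point area follows the score and is capped for the highest. The 7 regions of Mir29b-1 stretch over the upstream side, whereas those of Mir365-2, Snai1 and Gm4262 are all downstream.

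A region's nearest gene had at least 1 other peak of any class in 346 cases, 45.59% (42.0 to 49.21%), beside 42.3 percent of all peaks, a background within the interval. A promoter peak of the same gene accompanied 47 regions, 6.19% (4.59 to 8.15%) beside 5.25% over all peaks, and an intronic peak 139, 18.31% (15.62 to 21.25%), beside 22.68% over all peaks. Along the chromosomes 59 neighbouring regions were less than 10 kb apart, 53 of them at the same gene, and 24 less than 2 kb. The closest pairs were separated by 6 bases upstream of Piezo1 (92.34 and 45.84), 73 bases at H6pd (39.06 and 31.07) and 104 at Zc3hc1 (30.16 and 39.41). A gap of 154 bases separated the pair at Mgea5 (63.87 and 38.61), and 172 the pair at Slc16a1, the lactate transporter MCT1 (31.63 and 41.69). Whether such a pair is a divided signal or separate sites cannot be told apart from the peak list.

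A noncoding RNA candidate of the pull-down lay within 10 kb of 86 regions, 11.33% (9.16 to 13.8%), and this was 12.4 percent for all peaks. The background lay within the interval at 10 kb. At 5 kb it did not: 5.40% of the regions (3.904 to 7.257%) had a candidate, beside 8.47% of all peaks. All peaks include promoter and intronic peaks, which the class rule leaves out of the regions. At 10 kb the share was 24.69% for promoter peaks (20.57 to 29.19%) and 3.44% for intergenic peaks beyond 50 kb (1.79 to 5.93%). Within the set it was 23.73% for the 59 regions in the upstream 2 kb, 15.73 and 16.39% in the next steps to 10 kb, and 4.237 to 8.065% farther upstream. Downstream it was 0 of 2 within 2 kb, then 18.18, 12.5, 9.259, 11.11, 5.714 and 12.9%, without that steep decline. Regions near a candidate had a median score of 33.23, those without 34.25. The 86 regions lay near 75 different RNAs, whose median deposited fold of pull-down over input was 5.56, beside 5.06 for the whole list of 6208, which begins at 2.5.

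Read numbers recovered from the RPKM values allowed a counting interval of the fold for 57 of the 75 RNAs, and for 53 the interval lay above 1. The highest folds rest on few input reads. NONMMUT029120, near the pseudogene Pdxk-ps, went from 0.012 to 0.502 RPKM, 41.83-fold, on 2 input reads, counted as 1 pair (7.155 to 1657). The RNA near Gm5547 had 29.43 (5.071 to 1198), that near Foxf1, a transcription factor of lung mesenchyme, 24.73 (6.651 to 208.9), and that near Srcin1, an inhibitor of SRC, 21.0 (7.081 to 105.1). Near Foxf1 another candidate, NONMMUT067462, overlaps the span of the first and had only 5.31-fold (3.57 to 7.919), on 59 input reads. At Socs3 NONMMUT012952 overlapped the region at 1142 bases upstream and went from 0.094 to 1.854 RPKM, 19.72-fold (5.222 to 166.3). The others of the 10 highest were near Cldn25 (18.73), Mcrs1 (18.58), Itgb1, the integrin beta 1 subunit (17.74), and Sema4a (16.06). Their lower bounds ran from 3.104 to 7.119. Socs3 counts as 2 of the 10, since 2 of its regions lay near the same RNA. The intervals are so wide that the order within these is not settled. More deeply read RNAs had smaller folds with narrow intervals: 7.75 at Wdr5, a subunit of histone methyltransferase complexes (6.133 to 9.934), and 8.89 near Mgea5 (6.06 to 13.57).

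**Figure D4:**
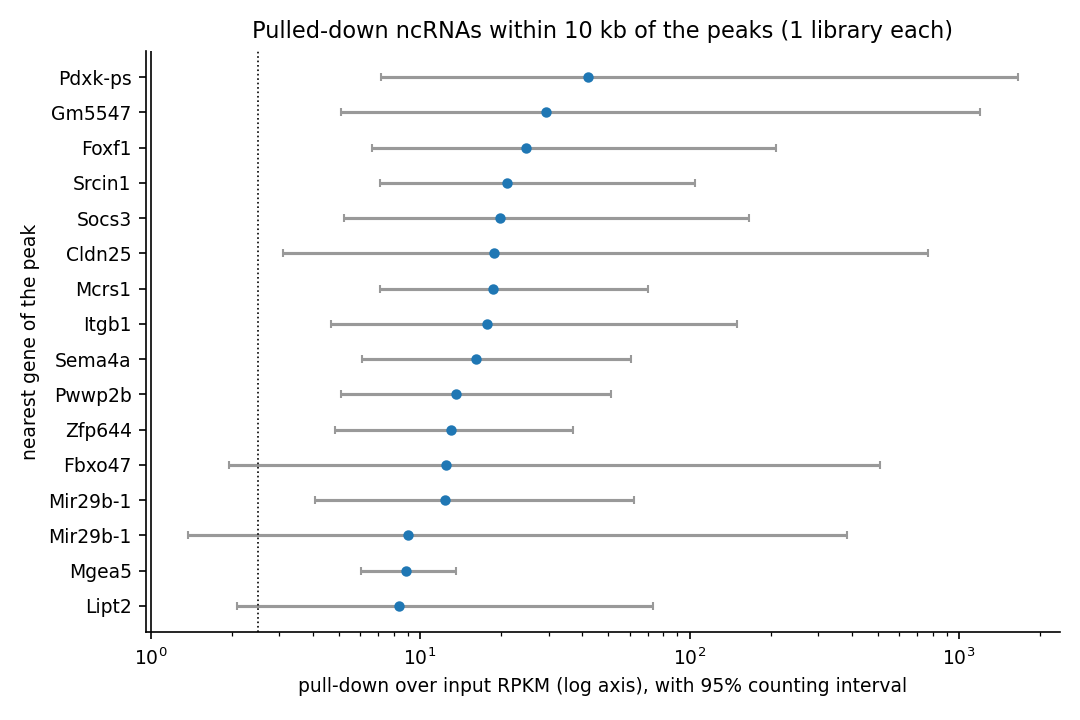
Deposited pull-down over input ratio (log axis) of the 16 noncoding RNAs within 10 kb of a region that have the highest folds and a counting interval, named by the region's nearest gene; bars are 95% intervals from recovered reads, 1 library each. The dotted line is the lowest listed fold of 2.5; bars are long for Pdxk-ps and Gm5547 and short for Mgea5.

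Direct overlap with a noncoding candidate was found for 14 regions, 1.84% (1.01 to 3.08%), beside 3.43% of all peaks. Besides Socs3 and Mir29b-1 these included 1 of 2 regions of Junb (33.79, 3279 bases downstream of its start), on NONMMUT066436 with 8.364 RPKM in the pull-down. The input of that RNA is listed as exactly 1 RPKM and its fold of 8.36 got no interval. Wdr5 had an overlapping RNA with 2.786 RPKM in the input and 21.589 in the pull-down. At Nuak1 the RNA went from 0.881 to 3.677 RPKM, 4.17-fold (2.41 to 7.745). For Trmt61a the fold of 3.03 had an interval of 0.8408 to 16.35, so its excess over the input was not detectable at this depth.

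Noncoding RNAs that the authors list as promoter-associated lay within 10 kb of 43 regions, 5.67% (4.13 to 7.56%), beside 6.72 percent of all peaks, and 7 regions overlapped such an RNA, 0.92% (0.37 to 1.89%) beside 2.26% of all peaks. The nearest gene itself stood in that list for 73 regions at 59 genes, 9.62% (7.61 to 11.94%), beside 8.77 percent. At 10 kb and by nearest gene the background lay within the interval, by overlap above it. Next to Srcin1, Socs3 and Mcrs1 came the promoter RNAs near Zfp644 (13.04-fold, 4.855 to 37.05), Fbxo47 (12.5-fold, 1.95 to 509.7), 2310081J21Rik (10.5-fold, an RNA listed for Gm906) and both regions of Mgea5. Lipt2, of lipoate metabolism, followed with 8.38 (2.101 to 72.96). Mgea5 joins several features: regions of 63.87 and 38.61 at 1114 and 2391 bases upstream, and a promoter RNA from 5.951 to 52.888 RPKM. Junb likewise had its region of 62.69 within 2878 bases of the RNA overlapped by its other region.

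Messenger RNA candidates lay within 10 kb of 38 regions, 5.01% (3.57 to 6.81%), beside 6.77 percent of all peaks. They overlapped 0 of the 759, and a region inside an annotated gene usually has another class. The nearest gene was itself on the mRNA list for 51 regions at 46 genes, 6.72% (5.04 to 8.74%), beside 6.51 percent. Regions near an mRNA candidate had a median score of 39.165, those without 34.11. Of 192 regions with a score of at least 40, 16 were near one, 8.33% (4.838 to 13.18%). That interval holds both the share of all regions and that of all peaks. The share among all peaks with such a score was not computed. The 35 mRNAs had a median fold of 4.7, against 4.93 for the 1964 of the list.

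Snai1 had the highest fold, 57.78, on 1 input read (10.07 to 2288), and Lrr1, a leucine-rich repeat gene, 53.6 on 6 input and 574 pull-down reads (24.81 to 148.7). A region near Vmn1r40 lay 3842 bases from Txnrd3, a thioredoxin reductase gene (27.55), and the region of 107.21 near Mir181c lay 9607 bases from Nanos3, a germ cell RNA-binding protein gene (15.73, 2.629 to 650.3). The region of Mir1199 lay near 1700067K01Rik (12.81, 4.158 to 63.06). The interferon-induced Ifit3 had 12.4 (5.503 to 34.15), Nkx3-2, a homeobox factor gene, 8.64 (4.568 to 18.37) and Slfn8 8.47. Rbm34 was the nearest gene that stood on both the mRNA list (3.87-fold) and the promoter-associated list (5.43-fold), with a region of 30.14 at 8106 bases upstream. Neither fold got an interval, and the input of the promoter RNA is listed as exactly 1 RPKM. The span of that RNA lies within that of the mRNA, so both listings may share reads.

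Among 17 gene lists 51 regions at 40 genes had a nearest gene in at least 1 list, 6.72% (5.04 to 8.74%), beside 4.69 percent of all peaks. Members and lists were chosen with earlier results known and the share carries no test. Of the 51 regions, 37 were upstream, 32 lay on the peak-rich chromosomes and 10 within 10 kb of a noncoding candidate. Over all regions of the set the shares with these features were 73.39, 62.06 and 11.33%, and over all peaks 43.93, 62.2 and 12.41%. The counts among the 51 were not tested against either background. Lung epithelium had 10 regions at 9 of its 40 genes, 1.32% of the regions beside 0.583% of all peaks, with a median score of 32.72, and 9 of the 10 were upstream. After Etv5 came Sftpb, surfactant protein B, at 42.48 and 27112 bases, with a promoter peak of its own, and Sox9, of distal lung progenitors, at 40.16 and 6591 bases. The Sox9 mRNA was in the pull-down at 5.68-fold (0.227 to 1.29 RPKM, interval 3.896 to 8.567). Hopx, an alveolar type I marker, had 35.32 and 30.62. The keratin genes Krt18 and Krt19 had 33.14 and 32.29, the chloride channel gene Cftr 30.37, the club cell gene Scgb1a1 30.21 and the basal cell factor gene Trp63 30.17, so these 5 genes had scores below the median of 34.18.

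Mesenchyme and matrix had 9 regions at 5 of 34 genes, 1.19% beside 0.373%. The matricellular gene Cyr61 had 53.32 at 35239 bases upstream and a noncoding candidate 7051 bases away (4.32-fold, 2.61 to 7.509). Besides Snai1, the collagen gene Col1a1 had 34.3 and 33.14, the gelatinase gene Mmp2 33.38 and 30.03, and Ctgf 31.73. AP-1 and immediate-early factors had 7 regions at 6 of 34 genes, 0.922% beside 0.42%. Batf3, a basic leucine zipper gene, had 65.63 at 22509 bases downstream, and its mRNA was listed at 28.5-fold (7.738 to 240.1). Junb had 62.69 and 33.79, Fos 35.75, Nr4a3 33.18, Btg2 30.76 and Jund 30.18. Nuclear receptors and lipid metabolism had 6 regions at 4 of 32 genes, 0.791% beside 0.467%. Rara had 85.03 and 34.24 in addition to a promoter and an intronic peak. Scd2, a stearoyl-CoA desaturase gene, had 53.88 and 35.44, its neighbour Scd1 31.47, and Pparg, the adipogenic receptor, 37.19 at 48468 bases.

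Of 45 let-7 target genes 3 had 4 regions, 0.527% beside 0.35%: Igf2bp3, the cyclin gene Ccnd1 with 55.94 at 31002 bases upstream, and Col1a1. No region lay nearest to any of the 14 let-7 genes, where all peaks gave 1. Polycomb and the nuclear exosome, the complexes that silence chromatin and degrade nuclear RNA, had 3 regions at 3 of 35 genes, 0.395% beside 0.117%. Among them were Exosc6, a ring subunit of the exosome, at 49.46 and 3022 bases downstream and Ezh2, the methyltransferase of Polycomb repressive complex 2, at 30.14 and 26347 bases upstream. Epithelial junctions and adhesion had 4 regions at 2 of 40 genes, 0.527% beside 0.537%, namely Itga3 and Itgb1 (30.15).

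The remaining lists had at most 2 regions each. TGF-beta and BMP signalling had Id3, an inhibitor of bHLH factors, at 39.98 and 32.81, and receptor kinase signalling had 2, with Pik3cd at 41.27. Pol II elongation had Aff1 (31.63) and the Mediator subunit Med1 (30.51), and the cell cycle had Ccnd1 and the helicase subunit Mcm5 (41.89). Wnt10a (36.4) was the single WNT gene of 50, where 25 of all peaks, 0.583%, were nearest to a WNT gene. Nop56 (47.38), a core protein of box C/D particles, came from ribosome biogenesis, with a noncoding candidate 2991 bases away at 3.19-fold (2.209 to 4.73). Klrb1c (34.64) came from immune cells. MicroRNA processing and endothelium had 0 regions, of 22 and 20 genes, where all peaks gave 6 (0.14%) and 5 (0.117%).

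**Figure D5:**
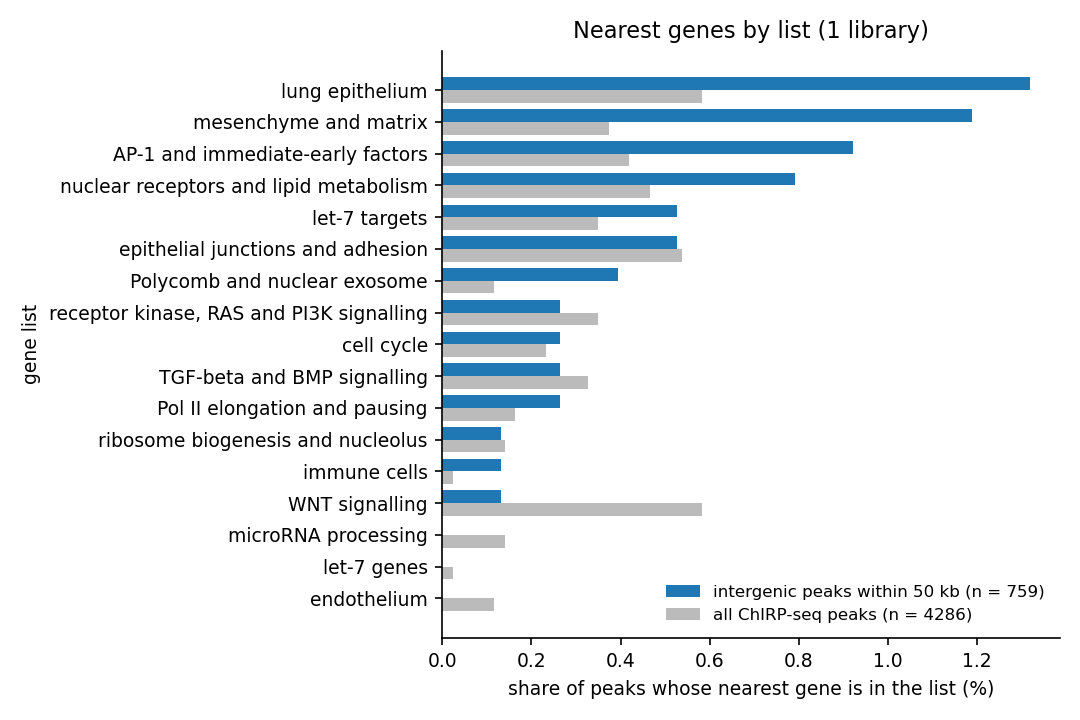
Share in percent of the 759 regions (blue) and of all 4286 peaks (grey) whose nearest gene is in each of 17 lists, 1 library, no test. The blue bar is longest for lung epithelium at 1.32% and is shorter than the grey bar for WNT signalling.

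By gene type, 659 regions were nearest to protein-coding genes, 86.8% beside 88% of all peaks, and 87 to noncoding RNA genes, 11.5% beside 10.5%. Pseudogenes had 8, 1.05% beside 0.887%, and Rn4.5s 5, 0.659% beside 0.35%. MicroRNA genes accounted for 31 regions at 21 genes, 4.08% beside 3.13% of all peaks, with a median score of 39.64. Of these 31, 18 were upstream and 7 lay within 10 kb of a noncoding candidate. All of those 7 but the region of Mir7214 belong to Mir29b-1, so the count does not describe microRNA genes at large. Of all regions 11.33% lay that near a candidate, and of all peaks 12.4%. The mature sequences of Mir29b-1, Mir365-2 and Mir181c, the leading microRNA genes by score, are those shown above. Mir142, of blood cells, had 45.8 at 7313 bases upstream, and Mir21, a microRNA raised in many tumours, had 33.01 at 3576 bases downstream. Zinc finger genes named Zfp had 17 regions at 17 genes (2.24% beside 1.24%), led by Zfp90 (57.15), Zfpm1 (49.62) and Zfp652 (47.67). Solute carriers had 10 at 7 genes (1.32% beside 1.84%), led by Slc6a6, Slc25a39 (47.58) and Slc13a2 (42.07). Olfactory receptor genes had 4 (0.527% beside 0.327%), led by Olfr1423 (48.26), and vomeronasal receptor genes 4 (0.527% beside 0.21%), led by Vmn1r40 (47.84). Hoxb13, the Hox gene found, had 2 (31.21 and 30.9), 0.264% beside 0.117% for Hox genes over all peaks. Gene models named Gm had 32 regions at 28 genes (4.22% beside 3.15%) and Rik transcripts 48 at 45 (6.32% beside 7.09%).

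The 5 widest regions were the 3 top regions of Rn4.5s (9855, 5633 and 4318 bases), that of Col19a1, and 1 of 6301 bases near the pseudogene 6820431F20Rik whose score was only 30.41. Without the Col19a1 region and the 5 of Rn4.5s, an alternative chosen after seeing the data, the median score was 34.13 and 24.83% reached 40.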

How the data were processed

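ChIRP-seq peaks (mm9) carry the authors' deposited MACS score and HOMER class, nearest gene and TSS distance, and the file headers name the MACS run. The pull-down lists hold, per the file headers, the authors' RPKM of both libraries and their ratio, the deposited fold, with a lowest value of 2.5. The submitters' processing notes name MACS, HOMER, Bowtie2, bedtools and SAMtools for the ChIRP-seq and also Trimmomatic and Picard 1.119 for the pull-down. The annotated table has no chromosome column, so chromosomes were joined from the peak list by peak name.

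RPKM times span fell on whole reads: in each of 4 columns 100% of values with enough decimals and under 200 reads lay within 0.15 reads. The denominators were 9.66 and 14.97 M reads for noncoding RNAs and 23.86 and 42.01 M for mRNAs, so RPKM was not compared between lists. Read depth of the ChIRP-seq is not given in the sources used here. Noncoding reads were counted as pairs, because 79.88% of input numbers were even. For mRNAs 65.12% of input and 65% of pull-down numbers were even, and their reads were counted singly. Intervals of mRNA folds may therefore be too narrow. Intervals of folds and shares are exact, at 95%, cover counting error only, and PCR copies cannot be removed. The code was tested on simulated data. With 1 library per group no test between groups was possible, and counts are set beside all peaks. Distances between a region and an RNA run from edge to edge.

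The regions and gene lists were chosen with earlier results of these data known. Named are the 25 highest scores, genes with 3 or more regions, list members (up to 4 in full), the 12 closest to a TSS, 5 on each side of the limit, the 10 highest folds per RNA list, the 5 widest, the 5 closest pairs, and up to 3 per gene family; some items these rules name are not reported here. Python 3.11.15, pandas 2.3.3 and scipy 1.17.1 were used.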

Additional observations from a re-analysis of the deposited data

How the results depend on the processing

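Of 35 alternatives over 11 results, 17 left the value inside its interval, or a count within 1.5 times, and 18 did not. Allowing repeats raised the regions to 1155. Near a noncoding candidate lay 5.40% at 5 kb, 36.5% at 50 kb and 1.84% by overlap, beside 8.469, 37.05 and 3.43% of all peaks. For mRNA candidates the shares were 2.50 (1.514 to 3.882), 15.55 and 0%, beside 5.506, 15.84 and 3.71%. Among regions scoring at least 40 the share at 10 kb was 8.33% (4.838 to 13.18). For promoter-associated RNAs they were 2.90 (1.825 to 4.356), 21.1 and 0.922%, beside 5.016, 18.46 and 2.263%. At 5 kb and by overlap the shares of all 3 kinds were thus below those of all peaks, whose value lay above each interval. All peaks include 405 promoter and 1826 intronic peaks, which the class rule leaves out of the regions. Overlap with an mRNA is largely excluded by that rule. How much of the other lower shares follows from the rule was not tested. Upstream regions made up 78.4% at a limit of 25 kb. Without the 5 peak-rich chromosomes 18.4% reached a score of 40 and the median score was 32.82. Neither value was computed for all peaks. Other peaks of the same gene, limited to promoters or introns, gave 6.19 and 18.3%. Regions scoring at least 40 had a median width of 857 bases, and 18 of them were linked to a gene list. Shares within a distance and counts move by construction with that distance or number; for the other changes the cause was not tested. Leaving out the maximal score and Rn4.5s was chosen after seeing the data and changed none of 3 results. No paired analysis was possible because each group has 1 library. Score depends on ChIRP-seq depth, which is unknown, and every fold above 10 near a region with recovered reads rests on fewer than 10 input reads.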

Other observations

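Neat1, the long noncoding RNA that scaffolds paraspeckles in the nucleus, was the nearest gene to 2 regions, named here after their values were seen. They scored 33.65 and 33.37, at 5629 and 17618 bases downstream of its start. Their intergenic class follows the transcript used by the deposited annotation. Whether they lie within a longer form of this RNA was not tested. Another long noncoding RNA gene, Cistr-act, had a region of 31.23 at 33671 bases upstream. Among nearest genes on the mRNA list but outside 10 kb, the immune gene Sectm1a had a region of 46.27 at 11415 bases upstream and a deposited fold of 56.33, on an input of 0.003 RPKM without an interval. On the promoter-associated list Tril, a cofactor of Toll-like receptors, had 36.5-fold, with a region of 31.31. Of the 759 regions 12 were annotated as CpG islands, 1.58% (0.82 to 2.75%), beside 1.14% of all peaks. The detailed annotation gives each peak a single name, and 0 of the 405 promoter peaks carried this one. Neither share therefore counts every peak that lies in a CpG island.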
